A study of Mus musculus with 148 samples.

Results

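The genes described here encode the chains of the antibody molecule and its partners on the B cell surface: Igkc, Ighm, Ighd, Iglc2, Jchain, Cd79a and Cd79b. They were taken by name, 7 of the 52634 gene rows in the count tables, and 6 of the 7 had at least 1 unique molecular identifier (UMI, a tag that counts 1 captured transcript molecule once). The genes were chosen by their UMI counts across the deposited cell labels, as they were already known to be high in the B label and to leave traces in others, so their levels across labels are given as descriptions, with no test. Levels are UMIs of a gene per 1000000 UMIs (CPM), both summed over the wells named. Because only transcript ends were captured, CPM was not scaled to gene length.

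The cells came from C57/b6 PA-GFP mice, whose cells carry a GFP that is switched on by light. EO771-tdTomato cells, a mouse breast cancer line that carries a red fluorescent protein, were injected into a mammary gland of 8-week-old females and the tumor was removed after 3 weeks. The 148 plates of 384 wells came from 27 mice and made up 63 samples of 1 mouse and 1 tissue: control lung (labelled Normal, 3 mice), Pre-MET lung of mice that still bore the tumor (3), primary tumor (4), relapse-free lung without metastases (6), lung with metastasis (MET, 13), distal normal tissue of metastatic lungs (14), and metastasis core (13) and invasive margin (7) marked by photoactivation. CD31- cells were sorted by CD45, the marker of all blood leukocytes, or by the photoactivated GFP, so a share of B cells is a share of that gate. A single implanted cell line gave every tumor, and most mice gave more than 1 tissue. The deposited annotation named 24020 of 56832 wells, 23425 of them immune in 27 populations, and 1055 of these (4.50%) carried the B label. A plate held between 31832 and 2176517 UMIs (median 225332) and a B well between 500 and 90142 (median 1001). The same 384 well barcodes were used on every plate, and no 2 plates held identical gene sums.

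An antibody is built from heavy and light chains. Ighm and Ighd encode the constant parts of the IgM and IgD heavy chains that naive B cells place on their surface, while Igkc and the lambda genes such as Iglc2 encode the light chains. Cd79a and Cd79b encode the signaling pair that carries the receptor at the membrane. Jchain joins secreted IgM and IgA into polymers and is abundant in antibody-secreting cells, which also turn on folding and secretion genes such as Mzb1, Derl3 and Xbp1 and often exchange Ighm for a switched heavy chain (Igha or an Ighg gene).

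Iglc2 had 0 UMIs in all wells, and its position and sequence are shown because they bear on how that 0 can be read. The gene lies at chr16:19198396-19200351 on the minus strand (GRCm38), and the annotation places the joining segment Iglj2, which is 38 bases long, inside its span. Reads with more than 1 mapping position were excluded by the authors. They also counted genes whose exons overlap on the same strand as 1 gene with a joined name. What that rule did to the Iglc2 row was not tested. The coding sequences of Iglc2 and its neighbor Iglc3 (chr16:19065230-19065681, minus strand) were the same at 303 of 314 aligned bases, or 96.5%, and 38 of the 266 stretches of 50 bases in Iglc2 (14.3%) were found unaltered in Iglc3. The 90 coding bases with the most differences are given below from the GENCODE vM21 transcripts, with the 7 bases that differ in capitals.
Iglc2: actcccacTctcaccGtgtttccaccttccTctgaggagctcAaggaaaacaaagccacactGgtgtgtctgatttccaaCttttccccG
Iglc3: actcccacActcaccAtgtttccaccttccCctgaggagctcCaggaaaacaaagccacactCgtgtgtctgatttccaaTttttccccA
In B wells Iglc1 and Iglc4 also had 0 UMIs and Iglc3 had 36, whereas the joining segment rows Iglj1, Iglj2 and Iglj3 held 6355, 5838 and 3554 UMIs. Lambda light chains were therefore read from the Iglj rows, and the 0 of Iglc2 was not read as an absence of its transcript. How well the Iglj rows stand for lambda chains was not tested. For counting error alone, 0 of the 1552081 UMIs in B wells allows a level of up to 1.93 CPM.

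The promoter of Jchain is shown because this gene had the smallest share of its UMIs in the B label: 1.70%, against 90.4% in the label DC_pDC described further on. Of the 7 genes the RefSeq promoter table (GRCm38.p6) held Jchain and Cd79a. The 250 bases before the Jchain start lie at chr5:88527898-88528147 on the minus strand, with matches of the E-box CANNTG in capitals.
Jchain: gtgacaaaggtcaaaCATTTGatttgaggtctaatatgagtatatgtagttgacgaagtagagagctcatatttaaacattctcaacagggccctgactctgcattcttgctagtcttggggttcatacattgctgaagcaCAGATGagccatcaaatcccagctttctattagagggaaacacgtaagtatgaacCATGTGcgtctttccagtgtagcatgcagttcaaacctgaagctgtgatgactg
Both strands were searched. The 3 E-boxes began 235, 109 and 54 bases before the start, and 66.2% of 32851 promoter windows of this length held at least 1. The octamer ATGCAAAT, known from immunoglobulin promoters, had no match in the Jchain window and was found in 1.60% of all windows.

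In B wells the light chain gene Igkc was the most abundant member at 15553 CPM, followed by the heavy chain genes Ighm at 4203 CPM and Ighd at 3062 CPM. The receptor partners Cd79b and Cd79a stood at 1850 CPM and 1060 CPM, and Jchain at 19.97 CPM. At least 1 UMI was seen in 84.7% of the 1055 B wells for Igkc, 77.7% for Ighm, 69.0% for Ighd, 52.2% for Cd79b, 40.1% for Cd79a and 0.474% for Jchain. After each well was thinned to 500 UMIs these shares were 81.9%, 66.2%, 57.2%, 40.0%, 26.8% and 0.199%. In the other immune wells without the DC_pDC label, the levels were 79.7 CPM for Igkc, 140 CPM for Ighm, 15.1 CPM for Ighd, 13.03 CPM for Cd79b, 1.96 CPM for Cd79a and 2.05 CPM for Jchain. B wells were thus 541-fold above these wells for Cd79a, 203-fold for Ighd, 195-fold for Igkc, 142-fold for Cd79b, 30.0-fold for Ighm and 9.73-fold for Jchain. Of the 31 Jchain UMIs in B wells, 26 were in the primary tumor of mouse 8, and without that sample Jchain stood at 3.33 CPM, 1.62-fold above the other wells. With all batches pooled, Cd79a therefore marked the B label with the widest margin and Ighm, among the genes abundant in B wells, with the narrowest. The rank of Cd79a depends on this pooling. Cd79a stood at 119 to 258 CPM in B wells of sequencing batches SB96, SB99, SB102, SB111 and SB112 and at 1993 CPM in SB128. Margins within batches were not taken.

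The label was also set beside markers. The authors annotated their clusters by marker genes in these same counts, so this is a description and no independent check. All 5 B cell markers listed for this were detected in B wells, with a summed level of 11476 CPM against 46.6 CPM in the other immune wells. Cd79a and Cd79b are among the 5, and the 3 that are no members summed to 8567 CPM against 29.5 CPM. Ly6d, a surface gene of the B lineage, led them with 6932 CPM. Markers of T cells summed to 91.5 CPM in B wells against 1314 CPM elsewhere and those of neutrophils to 689 CPM against 20780 CPM. Markers of dendritic cells summed to 728 CPM against 343 CPM, of which Ccr7, a chemokine receptor also known from lymphocytes, gave 694 CPM. Flt3 was also higher in B wells, at 10.3 CPM against 8.42 CPM, while Xcr1, Cd209a and Naaa were lower. Those of plasmacytoid dendritic cells summed to 191 CPM against 124 CPM, of which the transcription factor Tcf4 gave 189 CPM, and the other 5 were lower. In 19 B wells (1.80%) no member had a UMI, and their median depth was 746 UMIs.

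**Figure D1:**
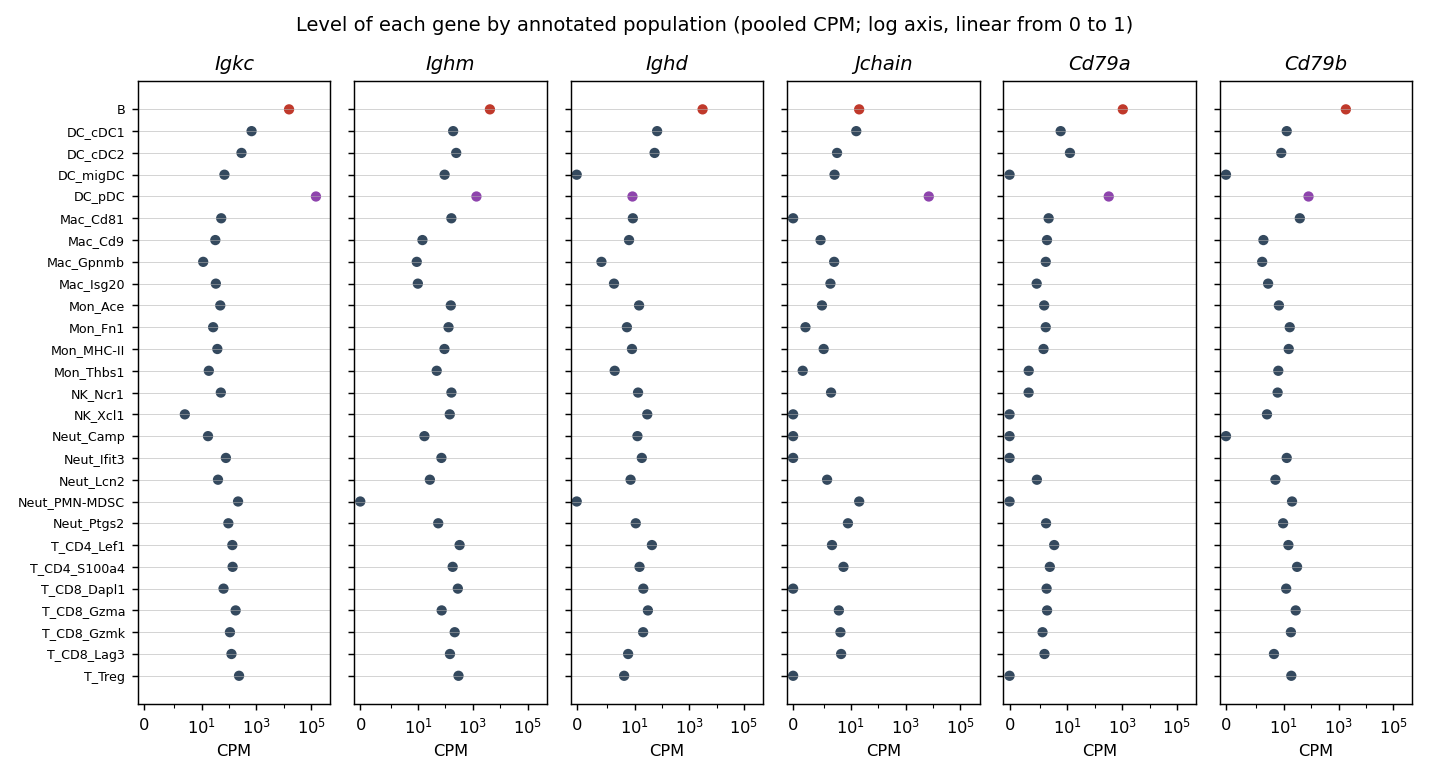
CPM of 6 members (x, log axis that is linear between 0 and 1) in the 27 immune populations of the deposited annotation (y), with B in red and DC_pDC in purple. Ighm, Ighd, Cd79a and Cd79b lie farthest right in B. Igkc and Jchain lie farthest right in DC_pDC, at 149375 and 6961 CPM, and Igkc stands at 15553 CPM in B. Ighm holds a level near 100 CPM or above in most T, NK and monocyte populations.

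The heavy chains of naive B cells prevailed in B wells. Both Ighm and Ighd had a UMI in 587 B wells, Ighm alone in 233, Ighd alone in 141 and neither in 94. Switched heavy chains were sparse: Ighg2b had 147 UMIs in 16 B wells, Igha 68 in 10, Ighg3 31 in 11 and Ighg2c 21 in 8, while Ighg1 had 0. One B well held 63 of the Ighg2b UMIs.

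The other genes of the receptor and antibody pathway were read from lists chosen together with the members, as levels in B wells beside those in all other immune wells. Of 9 transcription factors of the lineage all 9 were higher in B wells, with a summed 2126 CPM against 198 CPM, led by Spib at 472 ± 456 CPM, Ebf1 at 316 ± 200 CPM and Bcl11a at 272 ± 244 CPM (SD, n = 30 samples). Of 8 co-receptors 7 were higher, led by Fcmr, the IgM Fc receptor, at 410 ± 289 CPM and the tetraspanin Cd81 at 308 ± 210 CPM. The exception was Fcgr2b, an inhibitory Fc receptor also known from myeloid cells, at 104 CPM in B wells and 335 CPM elsewhere. Of 11 signaling genes 10 were higher, led by the phosphatase Ptpn6 at 444 ± 250 CPM, the scaffold Bank1 at 423 ± 294 CPM and the kinase Syk at 376 ± 251 CPM. The exception was the kinase Lyn, at 224 CPM in B wells and 288 CPM elsewhere. All 11 other surface genes were higher, led by Ly6d at 7722 ± 3226 CPM, Ms4a1, which encodes CD20, at 1263 ± 409 CPM and H2-DMb2 at 1253 ± 446 CPM. Of 10 secretion genes 7 were higher, led by Mzb1 at 539 ± 427 CPM, Sec11c at 299.5 ± 184 CPM and Txndc5 at 147 ± 158 CPM (SD, n = 30), whereas Xbp1, Prdm1 and Creld2 were lower in B wells, at 89.6, 3.22 and 72.2 CPM against 193, 30.8 and 93.4 CPM. These exceptions were named after their values were seen.

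Light chains were counted in the 940 B wells with 5 or more Igkc or Iglj UMIs. Igkc made up 90% or more of them in 306 wells, the Iglj rows in 132, and 502 wells lay between. The Iglj rows lie in the lambda locus on another chromosome than Igkc, so a well between the limits held UMIs counted at both loci. Whether the cell in such a well made both light chains was not tested. Whether the Iglj rows overcount lambda chains, or transcripts passed between wells, was not tested either. Among single B wells with a UMI, Igkc ranged from 289 to 91408 CPM with a median of 16428 CPM. Spearman correlations between members across the 1055 wells lay between -0.08 for Ighd with Jchain and 0.20 for Ighm with Cd79b. These wells share plates and differ in depth, and in counts this sparse the values are no more than a description.

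Across the 30 samples with 10 or more B wells, Igkc averaged 17135 ± 5346 CPM (SD, n = 30), with a lowest value of 9075, a median of 16501 and a highest of 30874. Ighm averaged 4266 ± 1406 CPM and Ighd 3213 ± 1473 CPM (SD, n = 30). The signaling partner Cd79b averaged 1818 ± 707 CPM, between 301 and 3370. Cd79a was the most uneven of the 5, at 1004 ± 1031 CPM (SD, n = 30), between 50.1 and 3539. In the distal normal tissue Igkc lay between 12652 and 27031 CPM in 5 samples, in metastases between 15825 and 30874 CPM in 6, and in primary tumors between 9190 and 13550 CPM in 4. The first 2 ranges overlapped, whereas the primary tumors lay within the range of the relapse-free lungs (10423 to 20504 CPM, 6 samples) but for the lowest. Primary tumors also overlapped distal normal tissue and Pre-MET lungs (11277 to 19380 CPM, 3 samples). They lay below all metastases and all control lungs (13877 to 17245 CPM, 3 samples). Control lungs were in SB102 and primary tumors in SB128 and SB132, so tissue and batch cannot be told apart between these 2 groups.

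Cd79a followed the sequencing batch, the SB number that the deposited well table gives each plate. In batches SB96 to SB112, 16 values of 1 sample in 1 batch lay between 0 and 687 CPM. In SB118, 4 values lay between 482 and 920 CPM. In SB126 to SB132, 13 values lay between 765 and 3539 CPM. Cd79b, the partner in the same receptor, spanned 301 to 3182 CPM, 1725 to 2411 CPM and 758 to 3161 CPM over the same batches, so its ranges overlapped throughout. Within relapse-free lungs, the pooled B wells of SB96, a batch with B wells of this tissue alone, held 258 CPM of Cd79a, and those of mouse 35 in SB128 held 1597 CPM. In mouse 17, whose 3 lung tissues were all in SB112, Cd79a was 275, 137 and 50.1 CPM in distal normal tissue, invasive margin and core. In mouse 36, all in SB128, it was 1825, 3470 and 3539 CPM in distal normal tissue, invasive margin and metastasis. Cd74, the chaperone of MHC class II, moved with the same batches in B wells: it stood between 1121 and 2515 CPM in the 8 batches SB96 to SB123 and between 9678 and 40757 CPM in SB124 to SB132. Whether library preparation had a part in these levels was not tested, and tissue and batch overlap only in part.

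**Figure D2:**
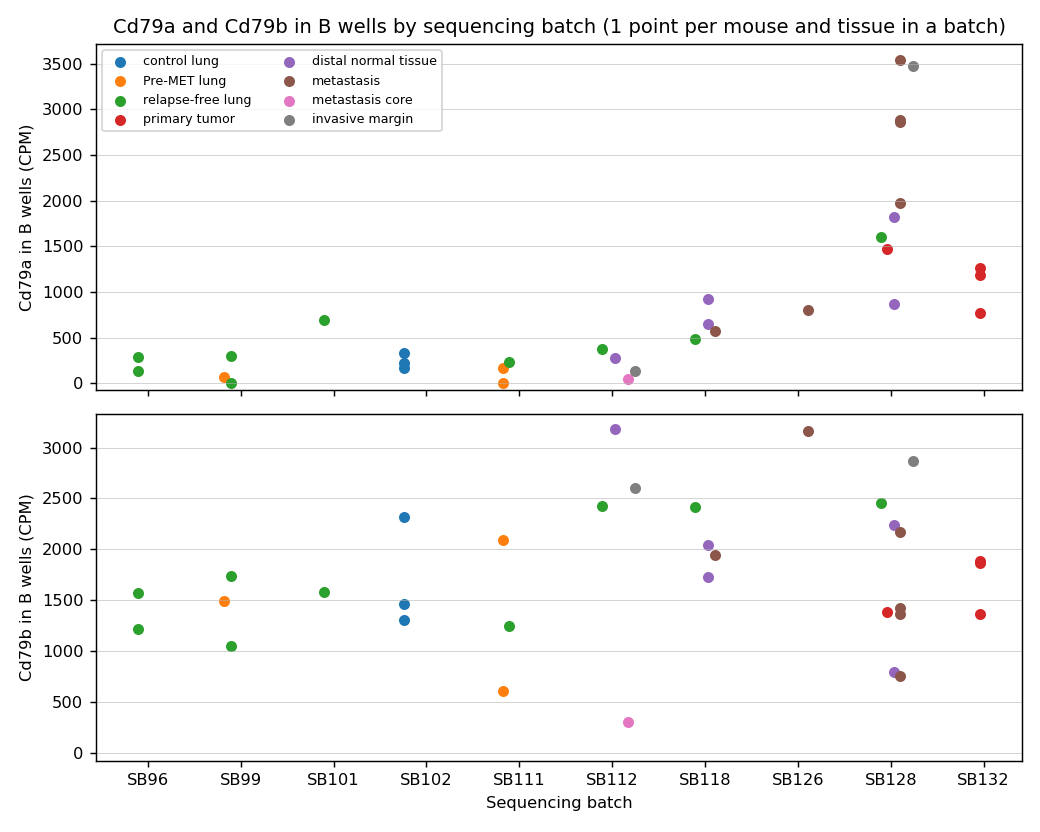
CPM of Cd79a (top) and Cd79b (bottom) in B wells (y) by sequencing batch (x), 1 point for each mouse and tissue with 10 or more B wells in a batch, colored by tissue. No Cd79a value in SB96 to SB112 exceeds 687 CPM and none in SB126 to SB132 is under 765 CPM, while the Cd79b points of all batches share 1 range.

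The tests in B cells were run on UMIs summed per mouse and tissue. Such sums cannot tell fewer transcripts per cell from a different mix of cells within the label. Between Pre-MET lungs and primary tumors 1 of 5 members tested was called, Cd79a, where 12.7% of the 923 genes tested were called in either direction. Cd79a stood at 62.1, 102 and 158 CPM in Pre-MET lungs and at 765, 1184, 1256 and 1467 CPM in primary tumors. These rest on 2, 2 and 3 UMIs in Pre-MET lungs and 71 to 192 in primary tumors. Cd79a could therefore pass the filter on low counts through the primary tumors alone, and its call counts for nothing beyond these values. The groups did not overlap, and the log2 fold change was 3.65 (SE 0.50, adjusted p = 0.000223, edgeR quasi-likelihood test with Benjamini-Hochberg adjustment). Igkc (-0.15, SE 0.30), Ighm (0.01, SE 0.31), Ighd (0.00, SE 0.42) and Cd79b (0.23, SE 0.31) did not pass, and their samples overlapped. Mice 8, 9 and 10 were in both groups, and this fit did not pair them. Their Igkc was 19380, 11277 and 14822 CPM in Pre-MET lung and 13550, 9190 and 13219 CPM in the primary tumor. Ighm, Ighd and Cd79b each rose in some of these mice and fell in others. With the mouse as a block, Cd79a was the only member called. All Pre-MET plates were sequenced in SB99 and SB111 and all primary tumors in SB128 and SB132, so tissue and batch cannot be told apart here. In SB128 itself the primary tumor of mouse 8 held 1467 CPM, within the 864 to 3539 CPM of the lung samples there.

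Other genes of the receptor pathway were listed with the members. Of the co-receptors of the B cell receptor, 2 of 6 tested were higher in primary tumors and none lower, where 117 of 923 genes (12.7%) were called and 41 of these were higher. They were Cd22, an inhibitory lectin, by 3.48 (SE 0.88) and Fcmr, the receptor for the Fc part of IgM, by 2.01 (SE 0.56) on the log2 scale. None of 7 signaling genes, none of 7 transcription factors and none of 2 secretion genes passed, and of 9 other B cell surface genes 1 did, Cd37, a tetraspanin, by 1.98 (SE 0.49). Like Cd79a, the genes Cd22, Fcmr and Cd37 could pass the filter on low counts through the primary tumors alone. Their calls and their number therefore count for nothing beyond these values. The lists' median log2 fold changes were 1.00 for co-receptors, 0.27 for signaling, 0.51 for transcription factors, -0.02 for secretion and -0.16 for surface genes, where the median of all 923 genes was 0.15. S100a8, a granule gene of neutrophils, fell by 5.49 (SE 0.90), the 1 neutrophil marker of 5 that was tested. It could pass the filter through the Pre-MET lungs alone, and its part in these results was not tested.

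Between control and Pre-MET lungs, 0 of 4 members were called in B cells and 0% of 706 genes, with 69 genes at an unadjusted p under 0.05. Fold changes of Igkc, Ighm, Ighd and Cd79b lay between -0.29 and -0.09 on the log2 scale. DESeq2 called 1 of the 706 genes and none of these members. Between distal normal tissue and metastases, 0 of 5 members and 0% of 265 genes were called, with 10 genes at an unadjusted p under 0.05. Cd79a changed by 1.11 (SE 0.47, adjusted p = 0.945, edgeR) and Ighd by -0.94 (SE 0.32, adjusted p = 0.917, edgeR) on the log2 scale there. Over 12 alternatives these ranged from 0.07 to 1.68 and from -1.09 to -0.44, and none passed. The Ighd values were 2416 to 7126 CPM in 5 distal tissues and 1884 to 3397 CPM in 6 metastases, so the groups overlapped. Mice 28, 36 and 37 were in both groups, with 2416, 3867 and 7126 CPM in distal tissue and 1884, 2760 and 2021 CPM in the metastasis. The fit with the mouse as a block called 0 members.

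Outside the B label, immunoglobulin UMIs were concentrated in few wells. Of the immune wells without the B label, 85.0% held 0 UMIs of Igkc, Ighm, Ighd and Jchain, 1863 held 1, 509 held 2, 786 held 3 to 9 and 195 held 10 to 82. The remaining 13 wells held 100 or more, and with them 78.2% of these UMIs. Together with 3 unannotated wells, 16 wells on 14 plates of 9 mice held 50.4% of all Igkc UMIs and 90.8% of all Jchain UMIs of the series.

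Of these 16 wells, 11 carried the DC_pDC label, whose name refers to plasmacytoid dendritic cells, the interferon-producing dendritic cells. The 73 wells of this label divided by Jchain, a split made after its values were seen. In 61 wells Jchain was 0, Siglech, a surface lectin of plasmacytoid dendritic cells, had a UMI in 86.9%, and all antibody genes, with switched heavy chains and Iglj rows, made up 0.719% of UMIs. In 12 wells Jchain had 2 to 393 UMIs, Siglech, Ccr9, Cox6a2 and Klk1 had 0, and the same antibody genes made up 57.3% of pooled UMIs. These wells were not alike. The deepest, with 32792 and 29248 UMIs, held antibody shares of 72.5% and 66.2%. The lowest shares, 6.89% and 10.0%, were in relapse-free wells of mouse 6, and a Pre-MET well of mouse 10 held 14.5%. Of the other listed markers of these dendritic cells, Tcf4 had 19 UMIs in 4 of the 12 wells and Runx2 1 UMI, against 42 and 22 of the 61 wells with a UMI. Secretion genes were present in the 12: Sec11c had a UMI in all 12, Mzb1 in 10, Xbp1, Derl3 and Txndc5 in 9 each, Irf4 in 4 and Prdm1 and Sdc1 in 3 each. The Pre-MET well had 2 Jchain UMIs, 5 UMIs of the listed dendritic markers and 0 of Mzb1, Xbp1, Derl3 and Txndc5. The well of mouse 6 at 6.89% had 10 UMIs of these markers. In the 61 wells Derl3, Irf4, Prdm1 and Sdc1 had 0 UMIs, while Sec11c was seen in 26, Xbp1 in 19, Txndc5 in 12 and Mzb1 in 6. Of the 35450 Igkc UMIs in this label, 35231 were in the 12 wells, which held 352391 CPM of Igkc, where all 73 wells pooled to 149375 CPM. Single wells held 14945 and 12576 of those 35231 UMIs. The 61 wells, with 1595 CPM of Igkc, held 2323 CPM of Ighm in 68.9% of wells, 15 CPM of Ighd (2 UMIs) and 0 Cd79a UMIs.

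The heavy chain of each immunoglobulin-rich well was mostly of 1 class. Igha led 9 of the 16 wells, Ighg2c 2, Ighg2b 1, Ighg1 1, Ighm 2 and Ighd 1. The deepest, in the primary tumor of mouse 9, held 14945 Igkc UMIs with 6720 of Ighg2b and 1653 of Ighg2c. A second, in the metastasis core of mouse 36, held 12576 Igkc UMIs with 5157 of Ighg2c, 963 of Ighg2b and 359 of Ighg3. Igkc was the main light chain in 14 wells, and 2 wells, in a metastasis of mouse 36 and in the distal normal tissue of mouse 25, had 2477 and 921 Iglj UMIs with 1 and 0 of Igkc. In both of these the heavy chain was Igha and Jchain had 249 and 127 UMIs.

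**Figure D3:**
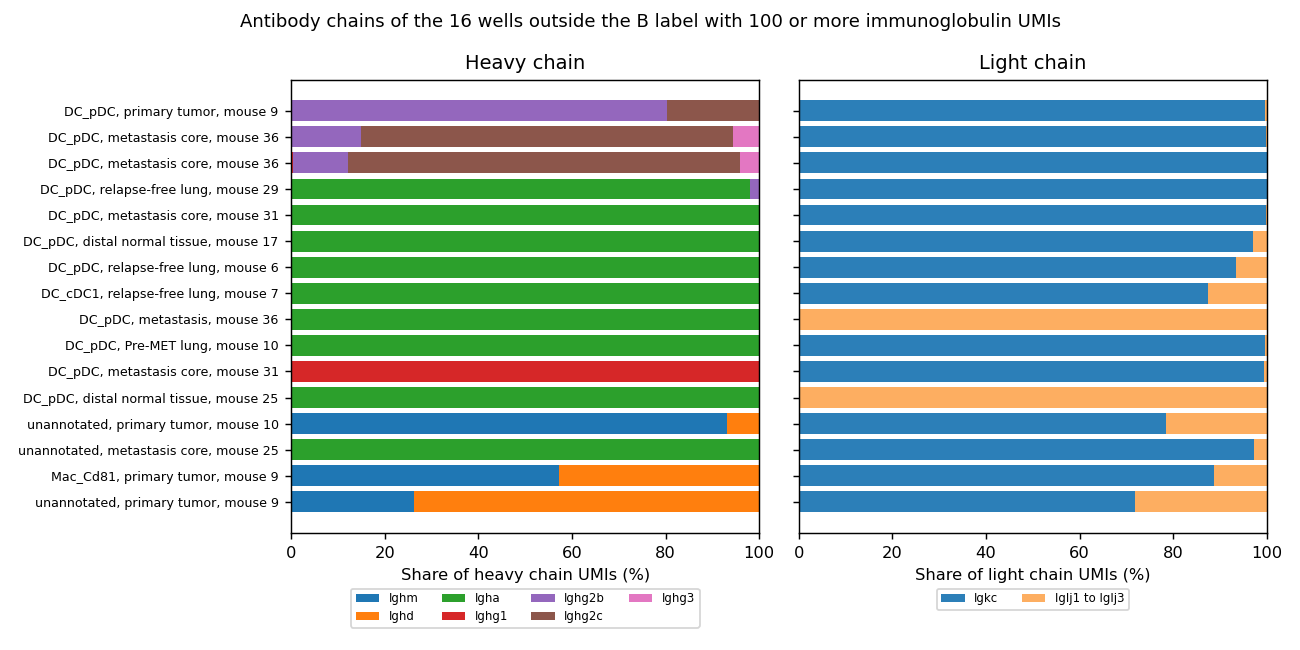
Share of heavy chain UMIs by gene (left) and of light chain UMIs (right) in the 16 wells without the B label that held 100 or more UMIs of Igkc, Ighm, Ighd and Jchain, named by label, tissue and mouse and ordered by that number. Igha fills the heavy chain of 9 wells almost alone, and 2 of these have Iglj1 to Iglj3 in place of Igkc.

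Of 12 plates whose rich wells led with a switched heavy chain, 9 held UMIs of that chain in their other wells and 3 held none. The 3 were a relapse-free plate of mouse 6 with 186 Igha UMIs in its rich well, a core plate of mouse 31 with 100 of Ighg1 and a core plate of mouse 25 with 15 of Igha. The share of plates without a rich well that held such UMIs was not counted, so the 9 of 12 has no level beside it. Among those plates, a core plate of mouse 17 and a relapse-free plate of mouse 18 held 6 and 3 Igha UMIs. Distal normal plates of mice 36 and 17 without a rich well held 0. On the core plate of mouse 36, 2 rich wells held 15259 Igkc, 1028 Ighg2b and 5621 Ighg2c UMIs, and the 181 other immune wells with under 10 immunoglobulin UMIs held 85, 3 and 11. Ighg3 had 382 UMIs in the rich wells and 0 in the others. Igkc was seen in 24.3% of those wells at 386 CPM, the highest level of all plates, while the plate had 2 B wells. On the primary tumor plate of mouse 9 the order of the IgG genes was the opposite: 6720 Ighg2b and 1653 Ighg2c UMIs in the rich well, 23 and 5 in 117 other wells and 4 and 2 in the 4 empty control wells. Those 4 empty wells held 15 of the 20 Igkc UMIs found in all 592 empty wells. Where the rich wells held lambda chains, the other wells held 40 and 17 Iglj UMIs and 5 and 1 Igkc UMIs, and on the distal tissue plate of mouse 17 the rich well had 285 Igha UMIs and the 238 others 17. Transfer of transcripts between wells was not tested.

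Traces differed between labels and between the genes. T cells held 129 CPM of Igkc and 252 CPM of Ighm, NK cells 44.7 and 163 CPM, monocytes 29.7 and 109 CPM, macrophages 35.9 and 74.1 CPM, neutrophils 68.0 and 41.5 CPM, and dendritic cells without DC_pDC 352 and 210 CPM. In these dendritic cells, 952 Igkc UMIs lay in 64 of 870 wells, 299 of them in 1 well of a relapse-free lung without which the level was 242 CPM. Over samples with 10 or more such wells, Igkc pooled to 1578 CPM in relapse-free lungs, or 562 CPM without that well, which puts them below the 723 CPM of control lungs. It was 590 CPM in the 1 invasive margin, 231 CPM in metastases, 116 CPM in primary tumors, and 35.1, 46.0 and 48.2 CPM in cores, Pre-MET lungs and distal normal tissue. For every 100 Igkc UMIs there were 27.0 Ighm UMIs in B wells, 195 in T cells, 206 in macrophages, 364 in NK cells, 369 in monocytes, 60.9 in neutrophils and 59.7 in dendritic cells without DC_pDC. The ratio in these 6 lineages was above that of B wells, whereas unannotated wells, at 29.9, were close to it. Among T cell populations, T_CD4_Lef1, named for a factor of naive T cells, held 328 CPM of Ighm, T_Treg 299 CPM and T_CD8_Dapl1 283 CPM. T_CD8_Gzmk, T_CD4_S100a4, T_CD8_Lag3 and T_CD8_Gzma held 217, 183, 146 and 72.6 CPM. The macrophage populations Mac_Gpnmb, Mac_Isg20 and Mac_Cd9 held 8.95, 9.81 and 14.4 CPM. The fourth macrophage population, Mac_Cd81, held 164 CPM, and 333 of the 435 Ighm UMIs in macrophages came from primary tumors. After thinning to 500 UMIs, Ighm was seen in 7.32% of T cells, 5.63% of NK cells, 4.36% of monocytes and 1.84% of neutrophils, and Igkc in 3.44%, 2.12%, 1.55% and 2.32%. Median depths were 996.5, 1002, 1452 and 989 UMIs. After thinning, Igkc was seen in 5.01% of the 846 T wells with an Ighm UMI and in 3.22% of the 6000 without, whose median depths were 1403.5 and 951 UMIs. Cd79a stood at or under 2.21 CPM and Cd79b at or under 17.7 CPM in T cells, NK cells, monocytes, macrophages and neutrophils.

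The traces were set against the B cell share of the plate, over 146 plates with at least 20 other immune wells and leaving out wells with 10 or more immunoglobulin UMIs. The Spearman correlation of the trace with the share of B wells was 0.46 for Igkc, 0.48 for Ighd, 0.39 for Cd79b and 0.23 for Ighm. Without the 14 plates with a rich well, the values were 0.55, 0.48, 0.41 and 0.28 over 132 plates. Plates share mice, batches and library pools, and B share and trace come from the same plate, so these are descriptions. On the 30 plates with neither a B well nor a rich well, the pooled Igkc trace was 7.78 CPM (17 UMIs) and the Ighm trace 97.0 CPM (212 UMIs). On 70 plates with B wells below 5% they were 29.1 and 103 CPM, and on 32 plates at 5% or more 40.8 and 128 CPM. The Igkc level without B wells was thus well under that on plates with them, while the Ighm levels of these plates lay closer together.

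**Figure D4:**
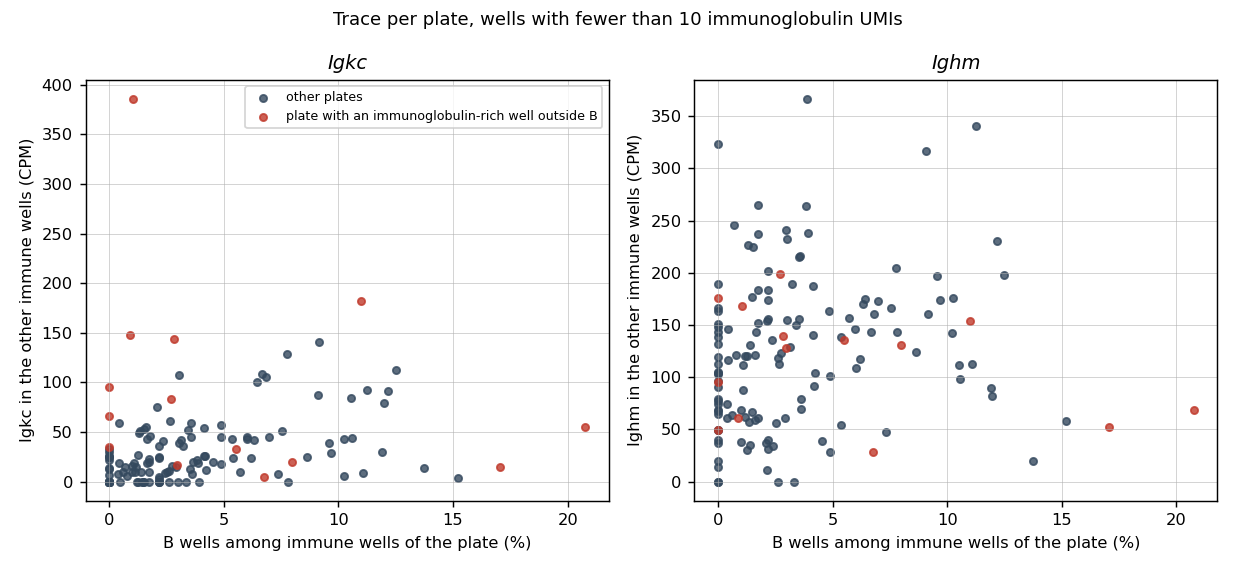
Igkc (left) and Ighm (right) in immune wells without the B label and with fewer than 10 immunoglobulin UMIs (y, CPM) against the share of B wells among immune wells (x, percent), 1 point per plate. Plates with an immunoglobulin-rich well are red; the highest Igkc point, at 386 CPM, has 1.04% B wells.

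Per mouse and tissue, the trace over all wells without the B label was related to the B cell share within each tissue. Pearson's r was 0.75 in 13 metastases (permutation p = 0.0105, adjusted over 5 tissues 0.0527, two-sided), with a Spearman's rho of 0.42 (permutation p = 0.155, adjusted 0.389). It was -0.04 in 14 distal normal tissues (permutation p = 0.901, adjusted 0.909, rho 0.43 with permutation p = 0.127) and -0.04 in 13 cores (permutation p = 0.909, adjusted 0.909, rho 0.29 with permutation p = 0.336). It was 0.59 in 7 invasive margins (exact p = 0.163, adjusted 0.272, rho 0.41 with exact p = 0.356) and 0.60 in 6 relapse-free lungs (exact p = 0.15, adjusted 0.272, rho 0.03 with exact p = 1). No tissue passed after adjustment, although metastases did with the B share of UMIs in place of wells (r = 0.79, adjusted permutation p = 0.0133) and with batch means removed (r = 0.76, adjusted permutation p = 0.0265). Without the 2 metastases farthest from the median B share, r was 0.02, so the relation there rests on those samples. In metastases r was 0.45 without DC_pDC, 0.41 without wells with Cd79a or Cd79b and 0.32 without wells of 10 or more immunoglobulin UMIs. With T cells only it was 0.21, and none of these passed. In the metastasis of mouse 36, 1 DC_pDC well held 249 Jchain UMIs of the 407 trace UMIs. Control lungs and Pre-MET lungs had 3 mice each and primary tumors 4, too few for a correlation. Primary tumors had the highest median B share, 11.2%, with a range of 10.2% to 18.8%. Control lungs lay between 8.36% and 10.5% and relapse-free lungs between 2.54% and 10.8%, so the ranges overlapped. The trace of primary tumors over all wells without the B label was 212, 240, 279 and, in mouse 9, 8108 CPM, against 441 to 571 CPM in control lungs, and the groups overlapped. In wells with under 10 immunoglobulin UMIs, a limit added after seeing the data, it was 40.3 to 155 CPM against 315 to 359 CPM. The limit counts UMIs per well, so it drops a well at a lower CPM where wells are deeper. In the primary tumor of mouse 8, 121 monocyte wells held 394364 UMIs, and in control mouse 1, 122 held 167340. Primary tumors were in SB128 and SB132 and control lungs in SB102, so tissue and batch cannot be told apart. The part of depth in this difference was not tested.

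In monocytes of control and Pre-MET lungs, Igkc and Ighd were called of the 3 members past the filter, where 4.32% of 4953 genes were called. Both could pass the filter through the control lungs alone, so their number supports nothing, and they are given as values. Igkc stood at 137, 111 and 208 CPM in control lungs and 28.4, 26.9 and 23.8 CPM in Pre-MET lungs, with no overlap. Its log2 fold change was -2.52 (SE 0.44, adjusted p = 0.00373, edgeR). Ighd stood at 41.8, 78.1 and 41.6 CPM against 3.78, 2.44 and 4.75 CPM, a log2 fold change of -3.80 (SE 0.85, adjusted p = 0.0175, edgeR) that rests on 32 and 5 UMIs. The Ighd call was lost when any 1 of the 6 mice was left out, with adjusted p between 0.0509 and 0.19 by edgeR. Ighm stood at 263, 251 and 111 CPM against 144, 142 and 143 CPM and did not pass (-0.60, SE 0.33, adjusted p = 0.35, edgeR). The monocyte label held different populations in the 2 groups: Mon_Ace made up 54.4% to 62.3% of monocytes in control lungs and 18.2% to 26.0% in Pre-MET lungs, and Mon_Fn1 23.0% to 24.8% and 63.7% to 75%. Within Mon_Fn1, Igkc was 55.4, 107 and 137 CPM in control lungs and 22.5, 15.2 and 16.2 CPM in Pre-MET lungs, from 3 to 9 UMIs each, with no overlap. Within Mon_Ace, it was 46.1, 97.7 and 336 CPM against 32.9, 20.2 and 53.6 CPM, and the groups overlapped. Within Mon_MHC-II, 12.9% to 20.1% of monocytes in control and 5.15% to 7.84% in Pre-MET lungs, it was 604, 137 and 0 CPM against 113, 163 and 0 CPM, and the groups overlapped. That population gave 16 of the 23 Igkc UMIs in monocytes of control mouse 1. Ighd in Mon_Ace had 5, 9 and 6 UMIs in control lungs and 0 in each Pre-MET lung. These values within populations were added after the difference was seen and were not tested. Ly6d, the B lineage surface gene and the 1 of 5 B cell markers that was tested, also fell by 2.73 (SE 0.52, adjusted p = 0.00699, edgeR). Ly6d too could pass the filter through the control lungs alone, so it is given as a value. The B cell share was 8.36% to 10.5% in control lungs and 4.32% to 7.27% in Pre-MET lungs. S100a8 was higher in Pre-MET monocytes by 1.90 (SE 0.31), 1 of 3 neutrophil markers tested. Control plates were all in SB102 and Pre-MET plates in SB99 and SB111, so batch and tissue cannot be told apart.

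In T cells of the same mice, 0 of 3 members were called, against 1.74% of 3218 genes. Igkc was 158, 115 and 187 CPM in control lungs and 136, 727 and 176 CPM in Pre-MET lungs (1.16, SE 0.51, adjusted p = 0.286, edgeR), with the value of mouse 8 far above the others. S100a8 was also higher in Pre-MET T cells, by 1.70 (SE 0.35). The difference between the monocyte and the T cell contrast was fitted after the values were seen, for a gene picked for its pattern, and its p is no independent support. It was -3.36 (SE 0.65, adjusted p = 0.0126, edgeR) for Igkc on the log2 scale, against 0.337% of 5639 genes called. Leaving out each mouse in turn gave -3.83 to -2.46, and the call was lost without Pre-MET mouse 8 (-2.46, adjusted p = 0.231, edgeR) and without control mouse 1 (-3.28, adjusted p = 0.0565, edgeR). With all mice the difference was -3.84 (SE 1.09, adjusted p = 0.198) for Ighd and -0.03 (SE 0.47, adjusted p = 1) for Ighm in the same edgeR fit.

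**Figure D5:**
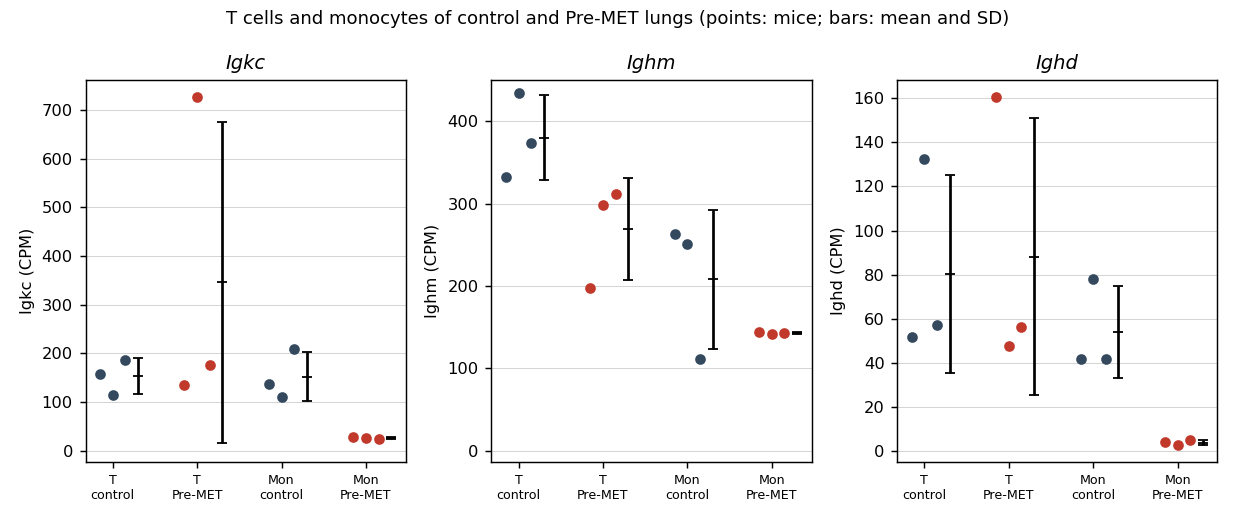
Igkc, Ighm and Ighd (CPM, y) in T cells and monocytes of 3 control (dark) and 3 Pre-MET lungs (red), with the mean and SD beside the points. The Pre-MET monocytes lie below 30 CPM for Igkc and below 5 CPM for Ighd, under all control monocytes, while the T cell groups overlap for both.

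In the remaining comparisons no member was called. Between primary tumors and metastasis cores, T cells had 2 members tested and 0 called, against 0.592% of 2197 genes. Ighm was 253 to 496 CPM in 4 primary tumors (median 366) and 0 to 517 CPM in 13 cores (median 104), a log2 fold change of -1.44 (SE 0.45, adjusted p = 0.0796, edgeR), with overlapping groups. DESeq2 and the fit without a filter on low counts called it, at adjusted p of 0.0398 and 0.0413. S100a8 was higher in core T cells by 4.15 (SE 0.94). Monocytes had no member past the filter there, where 1.47% of 1835 genes were called. Between distal normal tissue and metastases, no member passed the filter in T cells, where 0% of 394 genes were called (16 at an unadjusted p under 0.05), and Ighm in monocytes changed by 0.08 (SE 0.32), where 1.48% of 2098 genes were called.

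The genes most like the members in level over the 30 populations were ranked among 12151 genes. The measure was Pearson's r between a gene's log2(CPM + 1) and the mean of the standardized members. The highest were Iglj3 (0.94), Ly6d (0.94), the unnamed row AC161114.1 (0.94), Mzb1 (0.92), Iglj2 (0.90), the lambda variable gene Iglv1 (0.88), Iglj1 (0.87) and Vpreb3 (0.86). The 30 populations share plates and depth, and the DC_pDC wells above enter these values.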

How the data were processed

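UMI counts were deposited by the authors for each well of SPID-seq plates, a plate-based method that reads transcript ends. Per the study's methods, reads were mapped to mm10 with HISAT, reads with several mapping positions were excluded, and wells with under 500 UMIs were discarded; the labels name bcl2fastq 2.15.0.4. The deposited well table gave plate, batch, label and the number of cells sorted into each well. Mouse and tissue were assigned through the sample record of each plate. Members and gene lists were chosen with earlier results of these data known. Here counts were summed per label, plate, or mouse and tissue. Wells were counted as B, T, monocyte or other only by the deposited annotation, and no doublet removal was added. Samples with at least 10 wells of a lineage entered edgeR 4.0.16 (R 4.3.3) quasi-likelihood tests with TMM scaling, filterByExpr and Benjamini-Hochberg adjustment at 0.05; the spread is between mice. The named genes are the 7 members, the 3 most abundant genes of each pathway list in B cells (1 of them is not reported here), list genes called in a test, and the 8 genes most like the members. The likeness used genes with at least 200 UMIs. Thinned shares are the mean share after each well is drawn down to 500 UMIs; a floor (3 counts) covers counting error only. Correlations used 100000 permutations, or exact ones under 10 samples. Alternatives were DESeq2 1.42.0, its size factors, other cell minimums, no filter, deeper wells, removal of wells with Cd79a or Cd79b, each sample of groups of 5 or fewer left out, and the mouse as a block. The edgeR script was tested on simulated counts. Tissues of 1 mouse are paired by the animal. The mean correlation of their deviations from the group means was 0.24 in B cells, 0.29 in T cells and 0.26 in monocytes for distal normal tissue and metastasis, and 0.03 in B cells for Pre-MET lung and primary tumor.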

Additional observations from a re-analysis of the deposited data

Results flagged for a closer look

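Of 32 sets of 1 gene in 1 group of 4 to 10 samples, 4 held a sample far from the rest by Dixon's test. Chance gives about 1 in 20 for a single set, and sets of different genes share samples, so they are not independent. In B cells, Igkc was 30874 CPM in the metastasis of mouse 32 against 15825 to 20835 CPM in 5 others. Cd79a was 1597 CPM in the relapse-free lung of mouse 35, sequenced in SB128, against 185 to 687 CPM in 5 others in lower-numbered batches. In T cells, Igkc was 779 CPM in the invasive margin of mouse 26 against 0 to 123 CPM in 5 others, and 299 CPM in the relapse-free lung of mouse 18 against 66.7 to 137 CPM in 5 others.

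The change of Igkc between control and Pre-MET lungs differed between monocytes and T cells by -3.36 on the log2 scale (adjusted p = 0.0126, edgeR, 12 sums of 6 mice). This test was chosen after the values were seen and is no independent support. It did not pass without Pre-MET mouse 8 (-2.46, adjusted p = 0.231, edgeR) or without control mouse 1 (-3.28, adjusted p = 0.0565, edgeR).

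Wells outside the annotation held members as well. The 592 empty wells held 20 Igkc UMIs, 15 of them on 1 plate. With 8490 UMIs in all, this was 2356 CPM of Igkc. Ighm stood at 353 CPM there (3 UMIs), Cd79b at 236 CPM (2 UMIs) and Ighd at 118 CPM (1 UMI). The other immune wells without DC_pDC held 79.7, 140, 13.03 and 15.1 CPM of these 4 genes in that order. The levels of the empty wells rest on few UMIs, and their relation to the traces was not tested. The 32220 unannotated wells, with a median of 186 UMIs, held 7899 UMIs of Igkc, 2364 of Ighm, 1449 of Ighd, 837 of Cd79b, 428 of Cd79a and 54 of Jchain, with 29.9 Ighm UMIs per 100 of Igkc, where B wells had 27.0.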

How the results depend on the processing

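Of 104 alternative counts of members called, 17 had no member past the filter and could not move, and 78 of the other 87 stayed within 1.5 times the reported count. In B cells of control and Pre-MET lungs, wells of at least 1000 UMIs gave 1 called member, Ighd, in place of 0. In T cells of primary tumors and cores, DESeq2 and the fit without a low-count filter gave 1, Ighm, in place of 0. In monocytes of control and Pre-MET lungs, leaving out 1 mouse gave 1 in place of 2, for each of the 6 mice. Over the alternatives, the log2 fold change ranged from 3.54 to 4.89 for Cd79a between Pre-MET lungs and primary tumors and from -2.92 to -2.23 for Igkc in monocytes. Both could pass the filter through 1 group alone, so these ranges are no support.

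The mouse as a replicate block changed no call: 1 member was called in B cells of Pre-MET lungs and primary tumors, and 0 in B cells and monocytes of distal normal tissue and metastases. In T cells of these tissues no member passed the filter with the block, so its 0 shows nothing. With the block Cd79a was the member called. Leaving out the primary tumor of mouse 9 and the core of mouse 36, an alternative added after seeing the data, left the T cell count between primary tumors and cores at 0 of 2 members, and in monocytes no member passed the filter.

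The relation of trace to B cell share changed sign in 3 tissues without passing a test. In distal normal tissue r became 0.15 with T cells only, 0.38 without DC_pDC, 0.24 without wells of 10 or more immunoglobulin UMIs (added after seeing the data), 0.23 on log2 scales and 0.10 without the 2 farthest samples. In cores it became 0.41, 0.38, 0.16, 0.30 and 0.15 in that order, and in relapse-free lungs -0.25 with T cells only and -0.14 without the 2 farthest samples. In metastases it passed with the B share of UMIs (r = 0.79, adjusted permutation p = 0.0133) and with batch means removed (0.76, adjusted permutation p = 0.0265). In the other alternatives r in metastases lay between 0.02 and 0.54, and none passed. The cause of these shifts was not tested. Counts limit Ighd in monocytes, where the call rests on 32 UMIs in control and 5 in Pre-MET lungs.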
